A study of Mus musculus with 5 samples.

Results

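The genes described here encode 10 proteins of spindle assembly and cytokinesis: Tpx2, Nusap1, Hmmr, Tacc3 and Aspm of the spindle, and Prc1, Ect2, Racgap1, Anln and Cit of the spindle midzone and the cleavage furrow. They were chosen by gene symbol in the platform annotation, with earlier results of these data known. Of the 10, 9 had probes, 18 in all. The 9 were among 11191 tested genes, of 19087 named on the array. Tacc3 is unnamed in that annotation, so its expression was not analysed here, and it enters only the search of promoter sequence.

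N18 cells, a mouse neuroblastoma line, received either an adenovirus with the coding sequence of Dyrk1a, a protein kinase (pAd-Dyrk1a), or an adenovirus control vector (pAd-Track-CMV), so both sides of the comparison carried virus. Each of 5 Agilent 2-colour arrays set total RNA of 1 Dyrk1a sample against total RNA of 1 control vector sample. Dyrk1a RNA was in Cy5 on replicates 1 to 3 and in Cy3 on replicates 4 and 5. The design text speaks of 5 individual samples, while the labels do not say whether these were separate infections, and all come from 1 cell line, so p-values measure the spread between these samples. The dose of virus and the time after infection are not given in the sources used here.

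Every value is a log2 ratio of Dyrk1a over control vector, after subtraction of the array's median over the tested features, and a negative value means a lower level with Dyrk1a. The log base and the direction are not stated with the deposited values. The base was read as 2 because base 10 would make the lowest deposited value, -4.2, a 15849-fold ratio. This reading rests on 1 extreme value and does not exclude base 10. A natural log cannot be told from log2 in this way and would multiply each log2 value by 1.44, so printed folds rest on base 2. The direction was read from Dyrk1a itself, whose fitted probe was at 2.46, 2.30, 1.93, 3.02 and 2.37 in replicates 1 to 5, above 0 under both dye orientations. A pair of further Dyrk1a probes, missing from some arrays, averaged 0.063 over 2 arrays and -0.058 over 4. Over the tested genes, Pearson's r between arrays of opposite dye orientation ran from -0.109 to 0.095, and between arrays of the same orientation from 0.022 to 0.68, so the dye was fitted as a coefficient for each gene. Over all features, unnamed ones included, r between opposite orientations ran from -0.686 to -0.424. The ratios of replicate 2 were spread more widely, with an interquartile range of 0.288, than those of the other 4 arrays, at 0.145 to 0.166, and results are therefore given with and without it. The table holds ratios, so the identity of the cells could not be read as levels. Of 7 neuroblastoma markers, 6 were in the annotation and 4 were measured in all arrays, with Th and Stmn2 annotated but not so measured. Of 18 markers of glia, fibroblasts, endothelium, immune cells and epithelium, 15 were in the annotation and 4 were measured in all arrays. The fitted log2 ratios of these 4 ran from -0.04 to 0.13, and 0 of the 4 passed in limma, also at an unadjusted p under 0.05. Over the whole array, 11191 of 19087 named genes were measured in all arrays.

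At mitosis the microtubule network is rebuilt into a bipolar spindle. TPX2, released near chromosomes by the GTPase Ran, promotes microtubule nucleation and activates Aurora A, while ASPM and HMMR act at spindle poles and NUSAP1 bundles microtubules near chromosomes. After the chromosomes part, PRC1 crosslinks antiparallel microtubules into the midzone, which recruits centralspindlin, a complex of RACGAP1 and the kinesin KIF23. Centralspindlin brings in ECT2, the exchange factor that activates RhoA, and anillin and citron kinase organise the contractile ring and the midbody. Transcripts of many of these genes are made mainly in G2 and mitosis, so their levels in a culture depend on how many cells are dividing. In RNA from whole cultures, fewer cells in G2 and mitosis and less RNA per such cell cannot be told apart.

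All 9 tested genes had a fitted log2 ratio below 0. The median over the 9 was -0.21, and the values ran from -0.37 in Nusap1 to -0.06 in Racgap1. Over all tested genes the median was 0.01 and 45.1% were below 0. In 6 of the 9 the ratio was below 0 in every array, which held for 6.31% of all tested genes. In the fit of all 5 arrays, 0 of the 9 passed an adjusted p of 0.05 (limma, Benjamini-Hochberg over 14307 features), and 0 of 11191 genes (0%) were called lower at all. At an unadjusted limma p under 0.05, 7 of the 9 were lower, against 6.38% of all genes. Without replicate 2, 6 of the 9 fell at an adjusted limma p under 0.05, against 2.50% of all genes called lower and 0.858% called higher. The count of called genes also moved with the scaling of the arrays: 4 of the 9 were lower with arrays scaled to 1 interquartile range (1.55% of all genes), 5 with quantile normalization (1.70%) and 8 with array weights (6.41%).

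**Figure D1:**
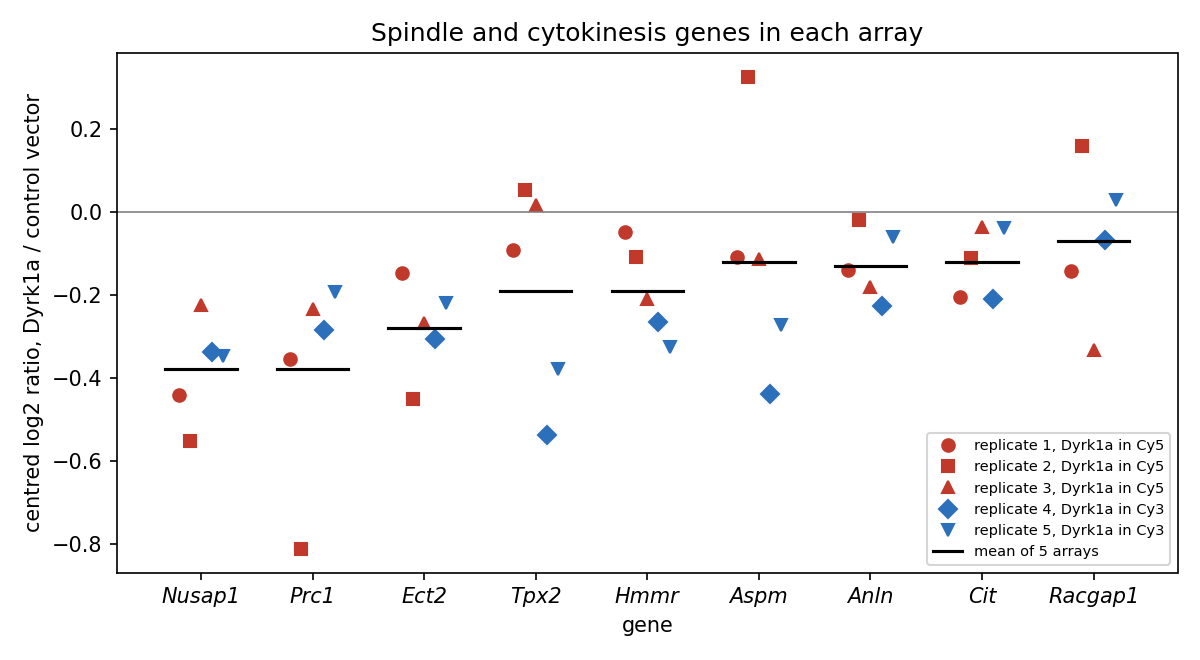
Centred log2 ratio of Dyrk1a over control vector (y axis) for each of the 9 genes (x axis) in each of the 5 arrays, with the marker shape giving the replicate, the colour the dye of the Dyrk1a RNA, and the black line the mean of 5 arrays. Nusap1, Prc1, Ect2, Hmmr, Anln and Cit lie below 0 in every array, and replicate 2 gives the lowest value of Prc1 (-0.813) and the highest of Aspm (0.326).

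Among the spindle genes, Nusap1 had the lowest fitted ratio. It was at -0.441, -0.553, -0.224, -0.337 and -0.347 in replicates 1 to 5, below 0 under both dye orientations. The mean was -0.38 ± 0.12 (SD, n = 5). The fitted log2 ratio was -0.37 (SE 0.0548, 95% interval -0.51 to -0.24), a 1.30-fold lower level, which ranked 29th from the lowest of 11191 genes. It did not pass (limma adjusted p = 0.0871), and without replicate 2 it fell by 0.34 (limma adjusted p = 0.0231).

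Tpx2 was low in the arrays with Dyrk1a in Cy3 only. Its log2 ratios were -0.092, 0.053 and 0.016 with Dyrk1a in Cy5 (replicates 1 to 3) and -0.538 and -0.378 with Dyrk1a in Cy3 (replicates 4 and 5), and the 2 orientations did not overlap. The orientation means were -0.01 and -0.46, so the fitted ratio of -0.23 (SE 0.0432, limma adjusted p = 0.137) lies midway between values that differ. The dye coefficient, the distance of each orientation's mean from the fitted ratio, was 0.23 (limma adjusted p = 0.0632). Without replicate 2 the Dyrk1a term passed at -0.25 (limma adjusted p = 0.0362) and the dye term passed as well at 0.21 (limma adjusted p = 0.0263). The dye and Dyrk1a coefficients of Tpx2 were thus of like size, and its 1 probe gives no second reading.

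Hmmr, also known as RHAMM, was at -0.049, -0.109, -0.211, -0.266 and -0.327 in replicates 1 to 5. All were below 0, and the 3 arrays with Dyrk1a in Cy5 were nearer to 0 than the 2 with it in Cy3. Its fit gave -0.21 (SE 0.0394, 95% interval -0.31 to -0.11, limma adjusted p = 0.137). It was also -0.21 without replicate 2, where it passed (limma adjusted p = 0.0461).

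Aspm, whose human counterpart is a microcephaly gene, varied more. Its fitted probe was at -0.108, 0.326, -0.114, -0.44 and -0.272 in replicates 1 to 5, below 0 in every array but replicate 2. The fit gave -0.16 (SE 0.0776, 95% interval -0.35 to 0.03, limma adjusted p = 0.532). Without replicate 2 it fell by 0.23 (limma adjusted p = 0.0354). Aspm has 3 further probes, each missing from some arrays, and they do not share a direction. The probe for AK052515 was at -0.288 and -0.3 in replicates 1 and 2. A second probe for NM_009791 was at 0.065, 0.069, -0.141 and 0.12 in replicates 1 to 4, and another was at 0.057 and 0.157 in replicates 4 and 5. With whichever probes were measured in an array averaged, the fitted log2 ratio of Aspm was -0.07.

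Of the midzone genes, Prc1 was below 0 in every array, at -0.356, -0.813, -0.234, -0.284 and -0.193 in replicates 1 to 5. Replicate 2 was far below the other 4, which spanned -0.356 to -0.193. The mean was -0.38 ± 0.25 (SD, n = 5) and the fitted log2 ratio -0.35 (SE 0.0882, limma adjusted p = 0.213). Without replicate 2 the size was smaller and the error smaller still: Prc1 fell by 0.27 (SE 0.0355, limma adjusted p = 0.024).

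Racgap1, the GTPase-activating subunit of centralspindlin, had the ratio nearest to 0. It was at -0.143, 0.158, -0.334, -0.068 and 0.028 in replicates 1 to 5, on both sides of 0. The fitted log2 ratio was -0.06 (95% interval -0.25 to 0.12, limma adjusted p = 0.831), and -0.13 without replicate 2 (limma adjusted p = 0.171). The interval allows a lower level of the size seen in Hmmr. Its 2 probes, both for NM_012025, were fitted at -0.08 and -0.04.

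Ect2, the exchange factor that activates RhoA at the cell equator, was at -0.147, -0.452, -0.269, -0.306 and -0.221 in replicates 1 to 5. Both dye orientations gave like values, with means of -0.29 with Dyrk1a in Cy5 and -0.26 with Dyrk1a in Cy3. The fitted log2 ratio was -0.28 (SE 0.0531, 95% interval -0.41 to -0.15, limma adjusted p = 0.142), a 1.21-fold lower level, and without replicate 2 Ect2 fell by 0.24 (limma adjusted p = 0.031). Its 2 probes, both for NM_007900, were each below 0 in all 5 arrays but differed in size, with fitted log2 ratios of -0.41 and -0.15. The gap between them was 0.26 ± 0.07 (SD, n = 5 arrays), of the same sign in 5 of 5 arrays. An exact two-sided sign-flip permutation test gave p = 0.0625, the smallest that 5 arrays allow, and 0.188 after Benjamini-Hochberg adjustment over the 3 probe pairs compared.

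Of the genes of the contractile ring and midbody, Anln, which encodes the scaffold anillin, was at -0.14, -0.02, -0.181, -0.228 and -0.06 in replicates 1 to 5, below 0 in all of them. Its fit gave -0.13 (SE 0.0448, 95% interval -0.24 to -0.02, limma adjusted p = 0.373), and -0.15 without replicate 2 (limma adjusted p = 0.0992). A second Anln probe, for the same transcript and missing from replicate 5, was at -0.045, -0.463, -0.06 and 0.241 in replicates 1 to 4. The probes had opposite signs in replicate 4.

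Cit encodes citron, a kinase of the midbody in dividing cells that neurons also make in a shorter form without the kinase domain. As the mean of 2 probes it was at -0.205, -0.112, -0.036, -0.211 and -0.038 in replicates 1 to 5. The fitted log2 ratio was -0.12 (95% interval -0.23 to -0.01, limma adjusted p = 0.409), and -0.12 without replicate 2 (limma adjusted p = 0.213). The probes gave different readings. The probe for AK047894 was at -0.167, -0.302, -0.135, -0.383 and -0.225 in replicates 1 to 5, below 0 in every array. The probe for NM_007708 was at -0.243, 0.078, 0.063, -0.039 and 0.149, on both sides of 0. Fitted singly they were at -0.25 (SE 0.0474, limma adjusted p = 0.148) and 0.01 (SE 0.064, limma adjusted p = 0.973). The probe for NM_007708 was the higher one in 4 of 5 arrays, by 0.24 ± 0.19 on average (SD, n = 5 arrays, exact two-sided sign-flip permutation p = 0.125, 0.188 after Benjamini-Hochberg adjustment over 3 pairs). One more Cit probe, for AF086824, was at 0.074 and 0.036 in replicates 2 and 3. The sources used here do not say which form of citron each probe detects.

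**Figure D2:**
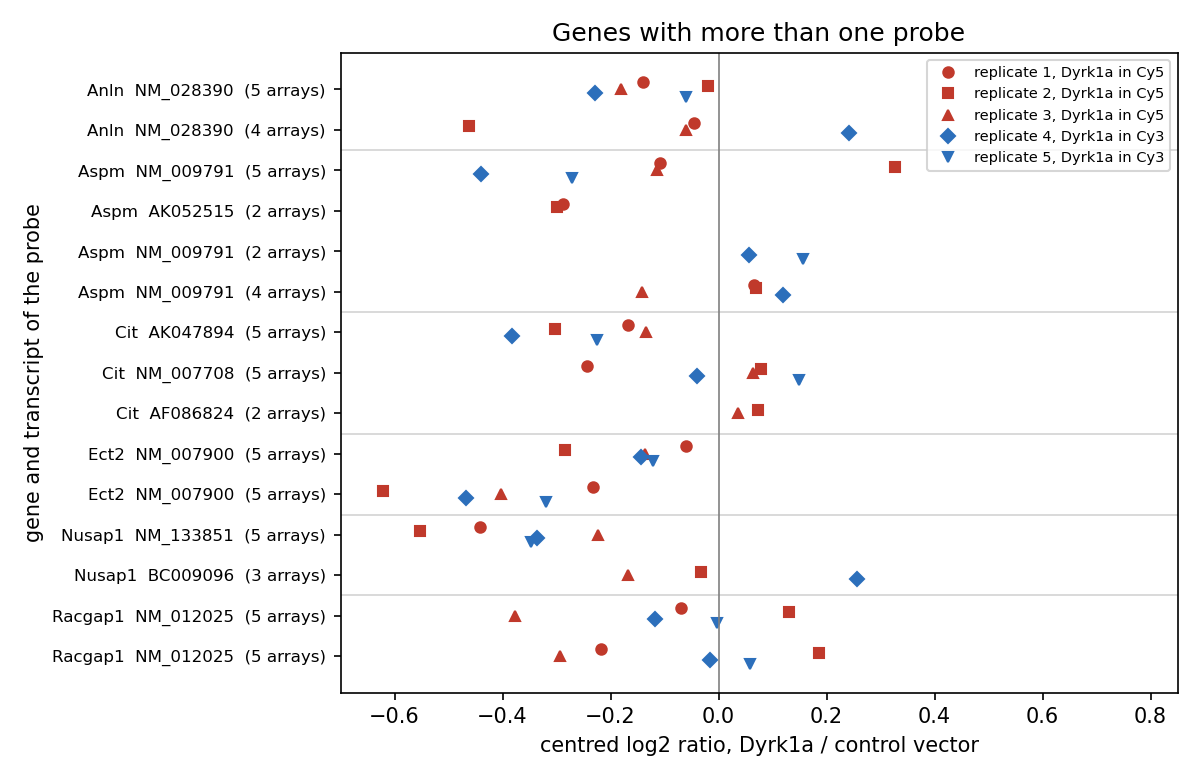
Centred log2 ratio of Dyrk1a over control vector (x axis) for every probe of the 6 genes with more than 1 probe (y axis, with the probe's transcript and the number of arrays that measured it), with the marker shape giving the replicate and the colour the dye of the Dyrk1a RNA. Both Ect2 probes lie below 0 in all arrays, the Cit probe for AK047894 lies below 0 in all arrays while that for NM_007708 spans 0, and the Aspm probes fall on both sides of 0.

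Nusap1 was measured by a further probe too, for BC009096, at -0.032, -0.167 and 0.256 in replicates 2, 3 and 4. In replicates 2 and 4 it did not repeat the low values of the fitted probe, at -0.553 and -0.337. In replicate 3 the fitted probe was nearer to it, at -0.224. Averaging whichever probes were measured gave Nusap1 a fitted log2 ratio of -0.25. In all, 6 of the 18 probes lacked a value in at least 1 array and stayed outside the fit. Intensities were not used here, so how bright these probes were, and their part in the differences between probes, was not tested.

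In order of the fitted ratio the genes ran Nusap1, Prc1, Ect2, Tpx2, Hmmr, Aspm, Anln, Cit and Racgap1. In each of the 8 neighbouring pairs in this order the mean difference within arrays was smaller than its SD, so the order of neighbours is not resolved. Between its ends, Nusap1 was lower than Racgap1 in 4 of 5 arrays, with a mean difference of -0.31 ± 0.29 (SD, n = 5). These ends were picked as lowest and highest in the same arrays, which favours a gap between them. The dye coefficient was largest in Tpx2 (0.23) and Aspm (0.20, limma adjusted p = 0.281), followed by Prc1 at -0.11 and Hmmr at 0.09, and it lay between -0.04 and 0.02 in the other 5 genes.

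**Figure D3:**
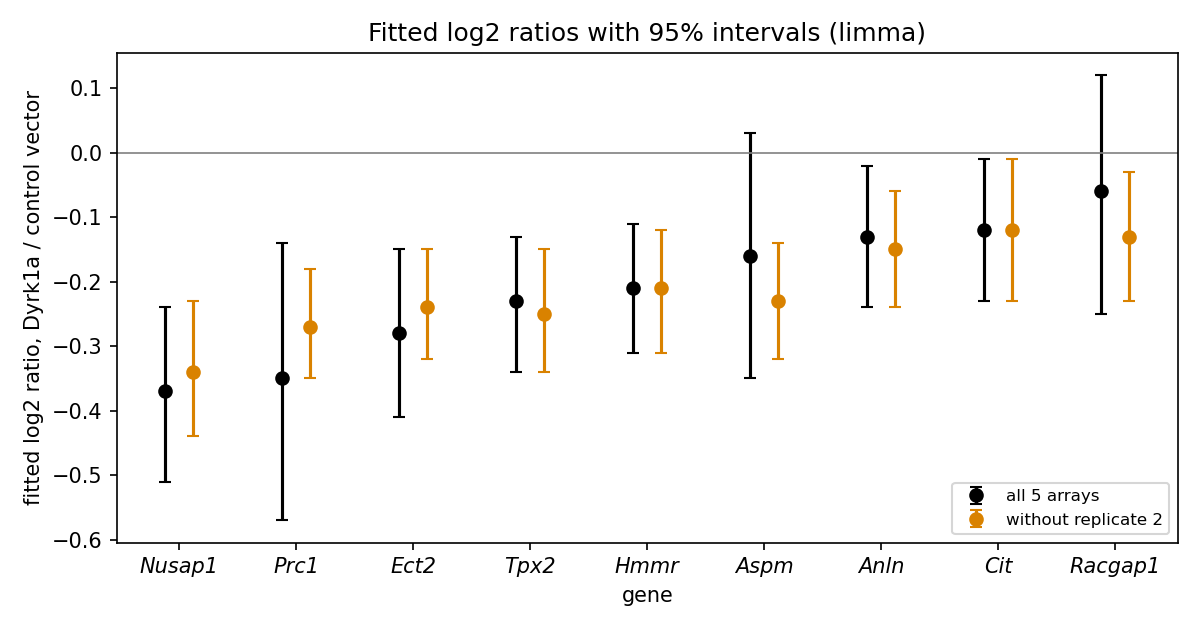
Fitted log2 ratio of Dyrk1a over control vector with its 95% interval (y axis, limma) for the 9 genes (x axis), from all 5 arrays in black and without replicate 2 in orange. The intervals of Aspm and Racgap1 include 0 with all 5 arrays, the interval of Prc1 narrows from -0.57 to -0.14 with 5 arrays to -0.35 to -0.18 without replicate 2, and all 9 point estimates stay below 0.

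The partners of these proteins were followed in lists drawn from general knowledge, but chosen with earlier results of these data known. Their counts beside the shares over all genes are descriptions, and no list was tested as a set. Spindle assembly partners had a median fitted log2 ratio of -0.16, and 38 of the 41 tested were below 0 (range -0.45 to 0.05). None of the 41 passed in the fit of all 5 arrays, 26 were lower at an unadjusted limma p under 0.05 (6.38% of all genes), and without replicate 2 18 fell (2.50% of all genes). Kif20b, a kinesin of late mitosis, was at -0.232, -0.338, -0.416, -0.686 and -0.452 in replicates 1 to 5, with a fitted log2 ratio of -0.45 (limma adjusted p = 0.0605, and 0.0222 without replicate 2). Aurka, the kinase that TPX2 activates, was at -0.482, -0.685, -0.505, -0.148 and -0.06. Its values were lower with Dyrk1a in Cy5 than with it in Cy3, the reverse of Tpx2, with a dye coefficient of -0.23 (limma adjusted p = 0.0703) and a fitted log2 ratio of -0.33 (limma adjusted p = 0.0831, and 0.0194 without replicate 2). Kif22, a chromosome-arm kinesin, had a fitted log2 ratio of -0.30 and the same dye pattern (dye coefficient -0.25). Kif18a, which dampens chromosome movement at the metaphase plate, was fitted at -0.27, below 0 in all 5 arrays.

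Midzone and cytokinesis partners were divided. Of 38 tested genes 24 were below 0, with a median of -0.06 and values from -0.40 to 0.15. None passed with all 5 arrays. At an unadjusted limma p under 0.05, 15 were lower and 1 higher (6.38% and 5.25% of all genes). Without replicate 2, 12 fell and 0 rose at an adjusted limma p under 0.05 (2.50% and 0.858% of all genes). The 4 with the smallest p included Incenp, Aurkb and Cdca8, which encode subunits of the chromosomal passenger complex. Incenp was fitted at -0.35 (SE 0.0359), Aurkb at -0.36 (SE 0.038) and Cdca8, which encodes borealin, at -0.27 (SE 0.0355), with limma adjusted p of 0.0605, 0.0605 and 0.0797. Incenp was at -0.371, -0.343, -0.352, -0.396 and -0.274 in replicates 1 to 5, a narrower spread than any of the 9 genes above had. It was picked for a small p, which favours a small spread, and the 9 genes were not. Shcbp1, a partner of centralspindlin, was fitted at -0.40 (SE 0.0556, limma adjusted p = 0.0848). Without replicate 2 these 4 fell by 0.35, 0.33, 0.28 and 0.35, with limma adjusted p from 0.0192 to 0.022.

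Genes of abscission, the membrane cut that ends cytokinesis and uses ESCRT proteins that also sort endosomal cargo, lay near 0. Of 32 tested, 11 were below 0, with a median of 0.02 and values from -0.08 to 0.14. None passed in limma with all 5 arrays, and none passed without replicate 2. At an unadjusted limma p under 0.05 with all 5 arrays, 0 were lower and 1 was higher (6.38% and 5.25% of all genes). Vps28, an ESCRT-I subunit, had the smallest p, with a fitted log2 ratio of 0.09 (limma adjusted p = 0.381). Chmp4b, an ESCRT-III filament subunit, was fitted at 0.14, and at 0.08 without replicate 2. Vamp8, a SNARE protein, was fitted at 0.08 and Exoc5, an exocyst subunit, at -0.08.

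The 10 tested relatives of the proteins that are not confined to mitosis had a median fitted log2 ratio of 0.04. Of these 10, 4 were below 0, against 45.1% of all genes. At an unadjusted limma p under 0.05, 2 were lower and 0 higher (6.38% and 5.25% of all genes). With array weights the median was -0.02 and 6 of the 10 were below 0 (46.6% of all genes). Arhgap5, which encodes a GTPase-activating protein, was fitted at -0.26 (limma adjusted p = 0.114, and 0.0395 without replicate 2). It was the 1 gene of the 10 that fell without replicate 2, against 2.50% of all genes. Rock1, a RhoA-dependent kinase related to citron and also on the cytokinesis list, was fitted at -0.33 (limma adjusted p = 0.139). Arhgap1 was fitted at 0.14, and at 0.09 without replicate 2, and Chn1, which encodes a chimaerin, at -0.09, and at -0.06 without replicate 2.

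Genes of S phase and other G2/M regulators give the setting. Of 28 S phase genes 28 were below 0, with a median of -0.26, and without replicate 2 21 fell. Of 23 G2/M regulators 23 were below 0, with a median of -0.27, and without replicate 2 19 fell. Cdt1, a replication licensing factor, was fitted at -0.33, the polymerase gene Pole at -0.28, and the helicase genes Mcm4 and Mcm7 at -0.29 and -0.27. Cdt1 and Pole were lower with Dyrk1a in Cy5 than with it in Cy3. Their dye coefficients were -0.19 and -0.13 (limma adjusted p = 0.0562 and 0.158), against 0.06 in Mcm4 and -0.06 in Mcm7. Cdk1 was fitted at -0.30, the kinetochore motor gene Cenpe at -0.55, the anaphase activator gene Cdc20 at -0.29 and the centromeric histone gene Cenpa at -0.28. With all 5 arrays 0 genes of either list passed (limma), while 26 and 19 were lower at an unadjusted p under 0.05, against 6.38% of all genes, and the 21 and 19 that fell without replicate 2 stand against 2.50%. Whether the 9 genes differ from these lists was not tested.

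**Figure D4:**
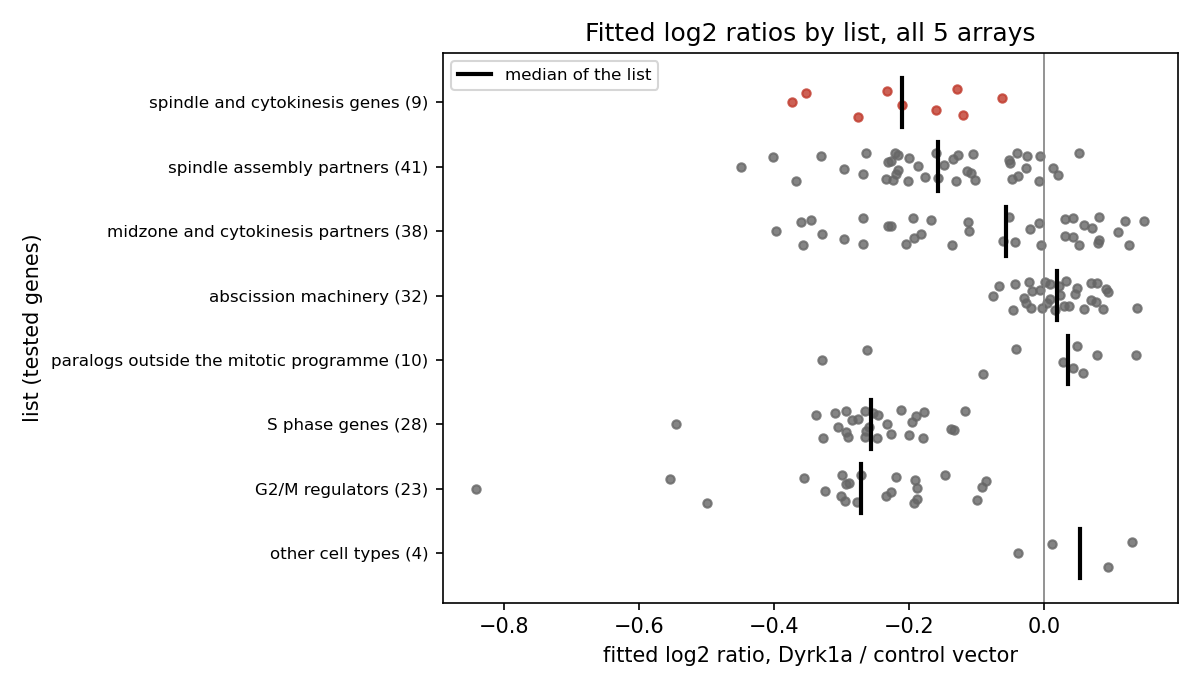
Fitted log2 ratio of Dyrk1a over control vector from all 5 arrays (x axis) for each tested gene of each list (y axis, with the number of tested genes), with vertical bars at the medians and the height of a point within its row carrying no value. The 9 spindle and cytokinesis genes have a median of -0.21, S phase genes -0.26, G2/M regulators -0.27, and abscission genes 0.02.

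The genes whose values were nearest to the mean profile of the 9 were found by the root-mean-square difference over the 5 arrays among 11182 other tested genes. That mean profile was -0.187, -0.169, -0.176, -0.298 and -0.201 in replicates 1 to 5. The nearest were Spc24, Kif15, Pttg1, Nemp1, Rtkn2 and Plk4, at root-mean-square differences of 0.0265 to 0.0378, against a median of 0.25 over the other genes. The nearest of the 9 themselves was Hmmr at 0.0902 and the farthest Prc1 at 0.299. Spc24 encodes a subunit of the Ndc80 kinetochore complex, Kif15 a spindle kinesin, Pttg1 securin and Plk4 the kinase of centriole duplication. Spc24 was at -0.207, -0.196, -0.139, -0.288 and -0.171 in replicates 1 to 5. The nearest genes were picked for likeness to a mean profile that varied little between arrays. Their small distances and small spread follow from that choice.

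Promoter sequence is shown because the 9 ratios lay on the same side of 0 and many late cell-cycle genes carry a CHR element (TTTGAA) with CCAAT boxes upstream of it. RefSeq promoter windows of build GRCm38.p6, 250 bases before to 50 after the start of transcription, were found for 9 of the 10 genes, with Tpx2 missing and Tacc3 included. On both strands, TTTGAA was present in 6 of the 9 (Anln, Aspm, Ect2, Hmmr, Prc1 and Racgap1), against 20.2% of 27025 genes. CCAAT was present in 5 of the 9 (Aspm, Ect2, Hmmr, Prc1 and Racgap1), against 41.1%. The CHR variant TTCGAA and the E2F letters TTTGGCGC or TTTCCCGC were in 0 of the 9, against 1.8% each. These motifs do not overlap one another in the stretches printed. The 200 bases before the start are printed for Prc1 and Ect2, which hold both motifs before the downstream of their 2 starts. They are also printed for Hmmr, which holds 5 CCAAT boxes, and for Nusap1, which had the lowest ratio and none of these letters. Capitals mark the CHR letters and the CCAAT boxes, which read ATTGG where the box is on the other strand.
Prc1 (chr7:80294276-80294475, plus strand, the downstream of 2 starts): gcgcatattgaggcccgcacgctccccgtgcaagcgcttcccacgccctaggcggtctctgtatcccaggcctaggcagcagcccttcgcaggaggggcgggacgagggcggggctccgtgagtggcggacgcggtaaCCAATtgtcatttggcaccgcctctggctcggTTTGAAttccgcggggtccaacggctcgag
Ect2 (chr3:27153855-27154054, minus strand, the downstream of 2 starts): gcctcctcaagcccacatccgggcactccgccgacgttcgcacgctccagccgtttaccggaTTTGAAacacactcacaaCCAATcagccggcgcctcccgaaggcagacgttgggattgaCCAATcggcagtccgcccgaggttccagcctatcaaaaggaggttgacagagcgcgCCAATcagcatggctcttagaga
Hmmr (chr11:40733438-40733637, minus strand): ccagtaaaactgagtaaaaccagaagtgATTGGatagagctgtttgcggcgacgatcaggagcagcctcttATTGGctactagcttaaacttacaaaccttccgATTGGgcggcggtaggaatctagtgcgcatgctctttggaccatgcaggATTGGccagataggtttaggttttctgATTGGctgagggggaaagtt
Nusap1 (chr2:119618098-119618297, plus strand): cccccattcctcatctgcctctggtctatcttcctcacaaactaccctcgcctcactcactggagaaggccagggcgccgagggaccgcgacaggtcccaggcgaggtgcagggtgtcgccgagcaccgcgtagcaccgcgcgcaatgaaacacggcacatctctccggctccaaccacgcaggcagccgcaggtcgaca

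Counted from its downstream start, Prc1 has the CHR letters at -30 to -25, downstream of CCAAT at -62 to -58. Counted from its upstream start, the same CHR letters lie at -5 to 1, across the start, and CCAAT at -37 to -33. In Ect2, from the downstream start, TTTGAA lies at -138 to -133, upstream of CCAAT boxes at -120, -79 and -23. It lies again after that start at 16 to 21. In Hmmr, Racgap1 and Aspm the CHR letters begin at positions 9, 6 and 7 of the transcript, with a CCAAT box on the other strand ending at -16, -8 and -8. Prc1, Ect2, Hmmr, Aspm and Racgap1 had both motifs, Anln had TTTGAA only, and Cit, Nusap1 and Tacc3 had neither. Whether the motifs go with the ratios was not tested. A match in a window is a description of its letters and does not show binding.

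**Figure D5:**
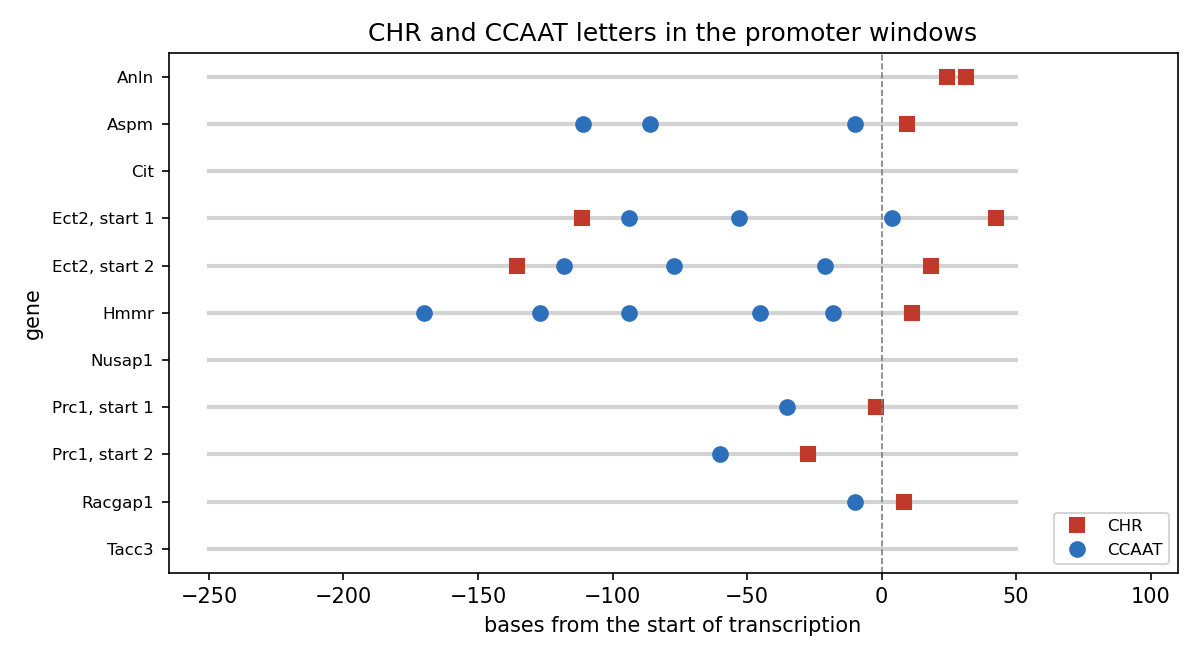
Positions of the CHR letters TTTGAA (squares) and of CCAAT (circles), on either strand, in bases from the start of transcription (x axis) in the promoter windows (grey lines) of 9 genes (y axis), with both annotated starts for Ect2 and Prc1. Hmmr holds 5 CCAAT boxes before its start, and Cit, Nusap1 and Tacc3 hold neither motif.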

How the data were processed

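The authors deposited log ratios, read here as log2, for 44290 features, with 1 column for each of the 5 arrays and 0 columns of other samples. Background correction and normalization are not given in the sources used here, and the base and the direction, Dyrk1a over control vector, were inferred from the deposited values. Probes were named through the platform annotation (32042 features name 1 gene, 47 several, 12201 are unnamed here). Probes with a value in every array were averaged by gene, and the array's median over the 14307 features tested was subtracted. limma 3.58.1 in R 4.3.3 (lmFit, eBayes) fitted the Dyrk1a effect and a dye coefficient for each gene, two-sided, with 3 residual and 2.87 prior degrees of freedom. P-values were adjusted by Benjamini-Hochberg over all 14307 features, called under 0.05. The fit was tested on simulated data with changes larger than those of the genes described here. That test does not cover changes of their size. The number of arrays limits the precision.

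The genes and lists were chosen with earlier results of these data known, and no list was tested as a set. All 9 tested genes are named, and for each list the 4 with the smallest p and for likeness the 6 nearest genes. Alternatives were scaling, quantile normalization, no centring, array weights, no dye coefficient, other rules for missing values and probes, robust eBayes, and leaving out each array. Python 3.11.15 with pandas 2.3.3 and matplotlib 3.10.9 prepared tables and plots.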

Additional observations from a re-analysis of the deposited data

Results flagged for a closer look

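Prc1 in replicate 2 was flagged because 1 sample lay far from the others: its centred log2 ratio was -0.813, and the gap to the nearest other array took up 0.737 of the whole range. Such a gap arises by chance in about 1 in 20 groups of values, and several genes and lists were screened. Replicate 2 also had the widest spread over all genes. Without it Prc1 was at -0.27.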

How the results depend on the processing

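All 9 genes stayed below 0 under each of the 13 alternatives that give a gene value, and the median over them ran from -0.25 to -0.19, and from -0.23 to -0.19 with 1 array left out and the same probes kept. Fitted singly, 11 of the 12 probes were below 0 and the Cit probe for NM_007708 was at 0.01. The number of the 9 called lower was 0 in the fit of all arrays, 4 with arrays scaled to 1 interquartile range, 5 with quantile normalization and 8 with array weights, which gave replicate 2 a weight of 0.148 and were estimated from these same arrays. Over all genes the counts were 43 higher and 174 lower with scaling, 47 and 190 with quantile normalization, and 622 and 717 with array weights, against 1 and 0. Over features measured in at least 4 arrays 0 genes were called higher. With replicate 1, 2 or 3 left out in turn, genes called higher numbered 0 to 96 and genes called lower 0 to 280. The number of the 9 called lower then ran from 0 to 6, and each maximum came without replicate 2. Leaving out replicate 4 or 5 keeps a single array with Dyrk1a in Cy3, on which the Dyrk1a and dye terms then lean. Dyrk1a lost its call without replicate 1, 4 or 5 (limma adjusted p = 0.334, 0.0985 and 0.0521), at fitted log2 ratios of 2.41, 2.30 and 2.63. Its ratio was 1.51 over features in at least 4 arrays (limma adjusted p = 0.0686) and 1.16 with whichever probes were measured, where further Dyrk1a probes entered its mean. Racgap1 ran from -0.13 to -0.01 and passed under 0 alternatives. Each array's ratio already pairs 1 Dyrk1a sample with 1 control vector sample, so the fit of the ratios is itself a paired analysis. The cause of the other changes was not tested.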
